A study of Medicago truncatula with 6 samples.

Results

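A set of LysM genes of the model legume Medicago truncatula was followed in mycorrhizal roots. It holds the receptor kinase genes NFP (MTR_5g019040), LYK3 (MTR_5g086130) and LYK9 (MTR_3g080050), and MTR_4g091010, a gene for a short LysM domain protein. They were taken by gene identifier and are 4 of the 54762 loci of the deposited table, and all 4 had enough counts to be tested. They were selected on their values in these 6 libraries, with their differences between the genotypes known, so those differences are described here and not tested. Root RNA was sequenced from the Mtphr2 mutant (3 libraries) and from its wild type R108 (3 libraries), and roots of both genotypes were mycorrhizal. The labels name neither the mutant allele, nor the fungus, nor the age of the plants. Libraries of a genotype are described there as technical replicates, and p-values therefore measure the spread among these libraries alone.

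LysM domains bind chains of N-acetylglucosamine, the building block of chitin. In legumes, receptor kinases with LysM domains outside the cell perceive chitin oligomers and lipo-chitooligosaccharides released by fungi and rhizobia, and pass the signal through a shared symbiosis pathway to the nucleus or to defence. Kinases of this kind work in pairs, in which one partner has an active kinase and the other does not.

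The short LysM protein gene and the receptors gave different pictures. MTR_4g091010 had lower CPM in every Mtphr2 library than in any R108 library, narrowly for the closest pair, with a fitted level 6.12-fold lower in Mtphr2. LYK9 was close to level between the genotypes, with 39.2 ± 2.41 CPM in Mtphr2 and 35.6 ± 4.17 CPM in R108. NFP and LYK3 were near the lower end of what could be measured, and their values overlapped between genotypes. CPM is the estimated count relative to the size of its library, which was adjusted by the TMM method, and every ± is an SD over n = 3 libraries. Totals of estimated counts per library ran from 18199040 to 21477169.

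NFP encodes the receptor-like kinase for Nod factors, the lipo-chitooligosaccharides of rhizobia, and lacks kinase activity of its own. Its estimated counts were 16, 8 and 15 in Mtphr2 replicates 1 to 3 and 34, 8 and 13 in R108 replicates 1 to 3. Exact 95% Poisson intervals, which cover counting error only, ran from 3.45 to 15.76 for a count of 8 and from 23.55 to 47.51 for the count of 34 in R108 replicate 1. In CPM these were 0.803, 0.368 and 0.714 in Mtphr2 and 1.85, 0.41 and 0.704 in R108. R108 replicate 1 alone stood above the others, which lay between 0.368 and 0.803 CPM in both genotypes. The fitted log2 fold change of Mtphr2 over R108 was -0.65 (SE 0.634), and without R108 replicate 1 it was 0.17, so its sign rests on that library.

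LYK3 encodes an active LysM receptor kinase that controls the entry of rhizobia into root hairs. It had 1.25, 1.24 and 0.952 CPM in Mtphr2 replicates 1 to 3, against 3.09, 0.974 and 2.49 CPM in R108 replicates 1 to 3. R108 replicates 1 and 3 lay above all Mtphr2 libraries, but R108 replicate 2 lay between Mtphr2 replicates 2 and 3, so the genotypes overlapped. These values rest on 25, 27 and 20 estimated counts in Mtphr2 and 57, 19 and 45.9 in R108. The log2 fold change was -0.92 (SE 0.457), and it ran from -1.28 without R108 replicate 2 to -0.59 without R108 replicate 1. LYK3 is one of a run of related genes with neighbouring locus numbers, several of which carry the same description, LysM receptor kinase K1B. Of the 7 tested genes in this run, 5 had an estimated count that was not whole, to within 0.005, in 1 library or more, where the share over all tested genes was 26.5%. LYK3 itself was among them, in R108 replicate 3, and how reads that match several of these copies were counted is not stated, so the values of single copies are uncertain.

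LYK9 encodes the Medicago counterpart of CERK1, the active LysM kinase of chitin perception, and takes part in both defence and mycorrhizal signalling. It had 41.3, 39.6 and 36.6 CPM in Mtphr2 replicates 1 to 3, against 40.4, 32.7 and 33.8 CPM in R108 replicates 1 to 3. R108 replicate 1 lay inside the range of the Mtphr2 libraries. The log2 fold change was 0.14 (SE 0.115), and it ran from 0.08 to 0.24 when single libraries were left out. With DESeq2's scaling of library size it was 0.12, both in edgeR and in DESeq2's own fit. The highest library of a genotype was 1.13-fold above the lowest in Mtphr2 and 1.24-fold in R108, against medians over all tested genes of 1.31-fold and 1.32-fold.

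MTR_4g091010 carries a LysM domain and no kinase domain in the deposited annotation, which gives its product no known function. It had 23.8, 4.28 and 7.71 CPM in Mtphr2 replicates 1 to 3, against 130.4, 62.8 and 25.8 CPM in R108 replicates 1 to 3. The genotypes did not overlap, although the highest Mtphr2 library, replicate 1, came close to the lowest R108 library, replicate 3. Of all 22663 tested genes, 10.6% had all Mtphr2 libraries below all R108 libraries, and this contrast was known when the gene was chosen. The log2 fold change was -2.61 (SE 0.813), and 0.755% of tested genes had a lower one. Single libraries moved it, to -3.60 without Mtphr2 replicate 1 and to -1.89 without R108 replicate 1. Within libraries of the same number the log2 differences, Mtphr2 minus R108, were -2.45, -3.84 and -1.73. The spread inside a genotype was 5.57-fold in Mtphr2 and 5.06-fold in R108.

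**Figure D1:**
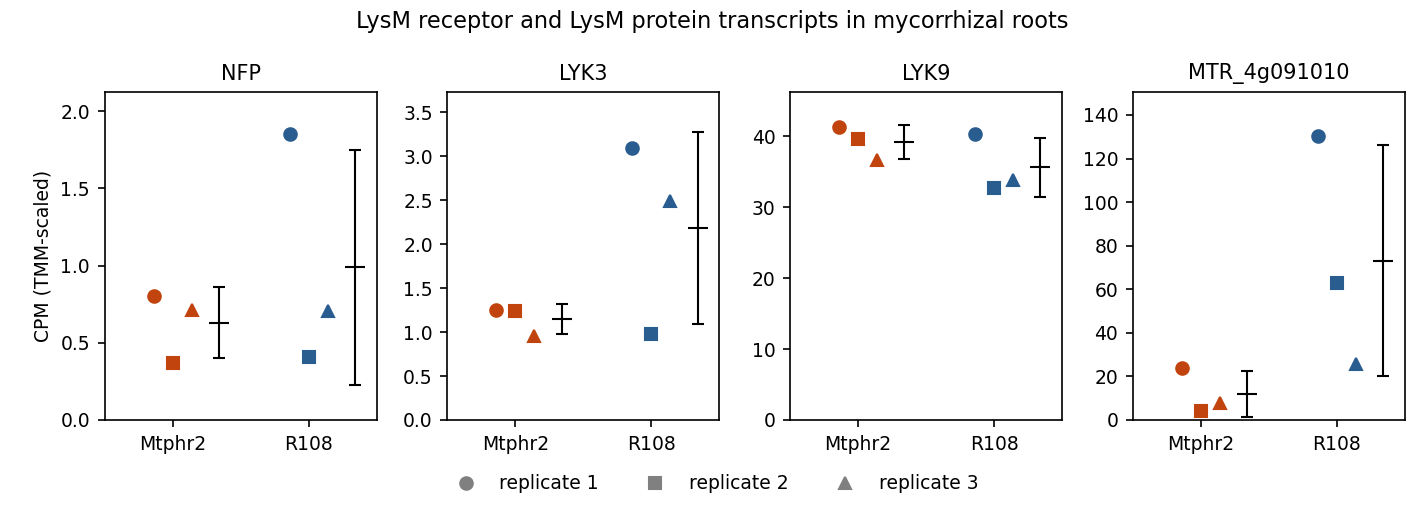
Level in CPM (linear axes from 0, a scale of its own for each gene) of NFP, LYK3, LYK9 and MTR_4g091010 in the 3 Mtphr2 and the 3 R108 libraries, with symbols for the replicate number and bars for mean ± SD. MTR_4g091010 does not overlap between genotypes, though narrowly, at 4.28 to 23.8 CPM in Mtphr2 and 25.8 to 130.4 CPM in R108, while the other 3 genes overlap.

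Genes that mark colonised cells also had lower values in Mtphr2. Over 13 genes that mark cells with arbuscules, the branched fungal organs inside root cortex cells, the mean log2 CPM was 5.23, 2.68 and 3.43 in Mtphr2 replicates 1 to 3 and 7.52, 6.36 and 5.08 in R108 replicates 1 to 3. The difference was -2.54, and the exact permutation test (two-sided) gave p = 0.2, where 0.1 is the smallest p possible. All 13 had negative log2 fold changes, as did 47.7% of all tested genes. By edgeR 0 of the 13 were called, against 0.0794% of all tested genes, and 11 had an unadjusted p under 0.05, against 16.4%. With the replicate block 1 was called, against 0.335%, and by DESeq2 4, against 5.73%. Their summed level ran from 124.2 to 1133 CPM in Mtphr2 and from 1123 to 5222 CPM in R108. None of the 13 was at 0 in any library. In bulk roots, fewer cells of a type and less RNA per cell cannot be told apart.

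MTR_4g091010 kept nearly the same distance from this marker mean in all 6 libraries. Its log2 CPM minus the marker mean was -0.64, -0.54 and -0.47 in Mtphr2 replicates 1 to 3 and -0.49, -0.39 and -0.38 in R108 replicates 1 to 3. The gap thus spanned 0.26, while the gene's own log2 CPM spanned 4.90. A gap narrower than the gene's own span was not particular to MTR_4g091010. For the LysM gene MTR_4g091020, with the next locus number, the gap spanned 0.65 and its own log2 CPM 4.55. For MTR_4g091000, with the locus number before, the gap spanned 1.17, also less than its own log2 CPM. For the receptor kinase genes MTR_5g033490 and MTR_8g078300 the gaps spanned 1.77 and 1.88, against own spans of 3.07 and 3.36. For LYK9 the gap to the marker mean spanned 4.82 while its own log2 CPM spanned 0.34, for LYK3 the spans were 4.01 and 1.60, and for NFP 3.60 and 2.05. The part of the marker level in the genotype difference of MTR_4g091010 was not tested.

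**Figure D2:**
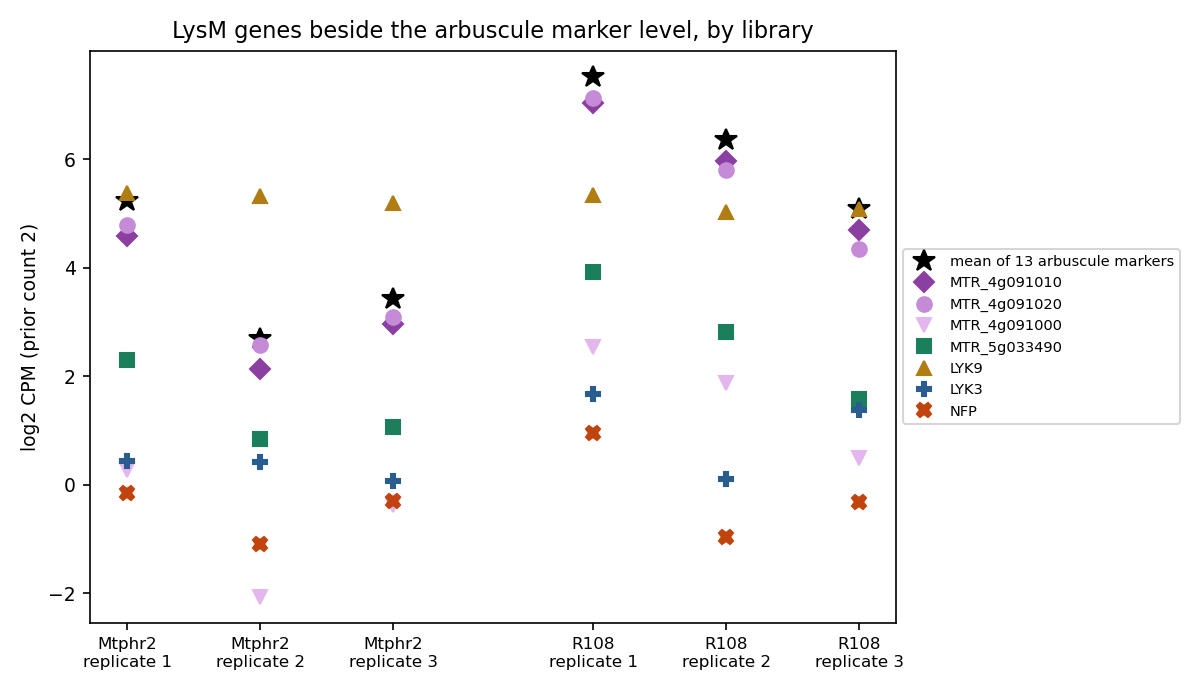
Log2 CPM (prior count 2) in each Mtphr2 and R108 library of the mean of 13 arbuscule markers (stars), the 4 LysM genes and 3 further LysM genes. MTR_4g091010 stays 0.38 to 0.64 below the stars in all 6 libraries, while the values of LYK9 span 0.34.

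NFP and LYK3 are best known from nodulation, so the leghemoglobins, oxygen carriers of nodule cells, were set beside them. Their summed level was 1.96, 3.64 and 2.24 CPM in Mtphr2 replicates 1 to 3 and 5.43, 11.6 and 4.12 CPM in R108 replicates 1 to 3. Of the 12 leghemoglobin genes, 7 were at 0 in every library after rounding and only 1, MTR_1g090820, was tested. That gene held most of the sum, with 1.96, 2.95 and 1.95 CPM in Mtphr2 and 5.21, 9.999 and 3.14 CPM in R108. The sum is thus mainly the level of 1 gene, whose closest Swiss-Prot entry is Leghemoglobin 29. It cannot be taken as a measure of nodule cells in these mycorrhizal roots. R108 replicate 2, with the highest leghemoglobin sum, had the lowest NFP and LYK3 values among the R108 libraries. These were estimated counts of 8 and 19, and a single library cannot relate the levels to each other. The part of nodule cells in these values was not tested.

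Levels of different genes were compared per kilobase of the gene length in the deposited table. MTR_4g091010 had 158 ± 115 CPM per kilobase in R108, the highest mean of 34 tested LysM genes, and 25.9 ± 22.6 in Mtphr2, the 4th highest. MTR_4g091020 had means of 147 in R108 and 28.4 in Mtphr2. In R108 its range (40.9 to 285) overlapped that of MTR_4g091010 (55.8 to 282), so the order of these genes is not settled. LYK9 came next of the 4 genes, with 17.2 ± 1.05 CPM per kilobase in Mtphr2 and 15.6 ± 1.83 in R108. In Mtphr2 the ranges of MTR_4g091010 (9.27 to 51.6) and LYK9 (16.0 to 18.1) overlapped, and in R108 they did not. LYK3 had 0.617 ± 0.092 CPM per kilobase in Mtphr2 and 1.17 ± 0.586 in R108, and NFP had 0.285 ± 0.104 in Mtphr2 and 0.447 ± 0.343 in R108. LYK3 and NFP overlapped in R108 and not in Mtphr2. By mean CPM over the 6 libraries, 4.5% of tested genes lay below NFP and 12.3% below LYK3, against 72.0% below LYK9 and 74.9% below MTR_4g091010.

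**Figure D3:**
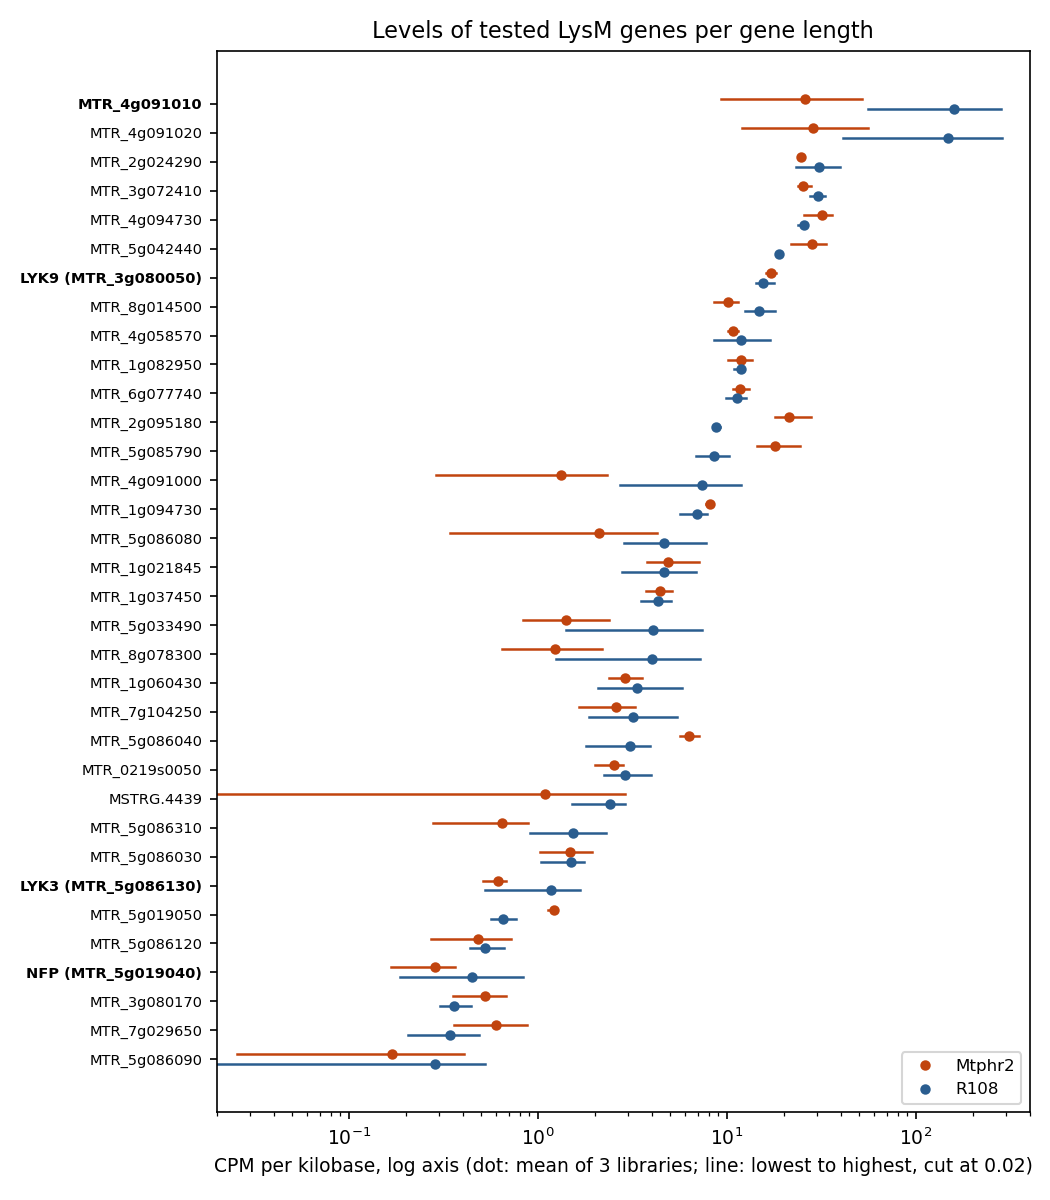
CPM per kilobase (log axis) of 34 tested LysM genes in Mtphr2 and R108, ordered by the R108 mean, with dots for the mean of 3 libraries and lines from the lowest to the highest library. MTR_4g091010 and MTR_4g091020 head the list in R108 at 158 and 147, and NFP and LYK3 lie near its foot.

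The annotation holds 51 further LysM genes, of which 30 were tested and 15 had no count in any library after estimated counts were rounded. With edgeR's quasi-likelihood test and Benjamini-Hochberg adjustment over all genes, 0 of the 30 passed an adjusted p of 0.05, where 0.0794% of all tested genes did. An unadjusted p under 0.05 was found for 8 (5 higher and 3 lower in Mtphr2), or 26.7%, against 16.4% of all tested genes. With the replicate block 0 of the 30 passed, against 0.335% of all tested genes, and DESeq2 called 5 (4 higher, 1 lower), or 16.7%, against 5.73%. The genotypes did not overlap for 8 of the 30, or 26.7%, against 22.2% of all tested genes. The median log2 fold change of the 30 was -0.13 and that of all tested genes 0.02, with 13 positive and 17 negative values in the list.

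The near relatives of MTR_4g091010 had the lowest log2 fold changes of the 30. MTR_4g091000 and MTR_4g091020, whose locus numbers stand on either side of MTR_4g091010, also have a LysM domain and no kinase domain. MTR_4g091020 had 27.5, 5.89 and 8.43 CPM in Mtphr2 replicates 1 to 3, against 140.1, 55.9 and 20.1 CPM in R108 replicates 1 to 3, and the genotypes overlapped because R108 replicate 3 lay below Mtphr2 replicate 1. Its fitted change was -2.37 in log2 units (SE 0.857), or -3.33 to -1.45 with single libraries left out, and the adjusted p was 0.268 by edgeR and 0.082 to 0.511 over the alternatives. MTR_4g091000 had 1.1, 0.138 and 0.667 CPM in Mtphr2, against 5.7, 3.59 and 1.3 CPM in R108, with no overlap. Its log2 fold change was -2.47 (SE 0.788), or -3.12 to -1.94 with single libraries left out, and the adjusted p was 0.248 by edgeR and 0.0427 with DESeq2 to 0.467 over the alternatives. In CPM the ratio of MTR_4g091010 to MTR_4g091020 was 0.868, 0.727 and 0.915 in Mtphr2 replicates 1 to 3 and 0.931, 1.12 and 1.28 in R108 replicates 1 to 3. These genes belong to 6 LysM genes whose annotation named no receptor kinase, GPI-anchored or peptidoglycan-binding type. The 6, of which 3 had no counts, summed to 26.5 ± 22.7 CPM in Mtphr2 and 149 ± 117 CPM in R108. MTR_4g091010 alone made up 3.57%, 0.795% and 1.5% of the CPM of all 55 LysM genes in Mtphr2 replicates 1 to 3, and 15.8%, 10.5% and 5% in R108 replicates 1 to 3.

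Receptor kinases differed among themselves in direction. Of the 21 other tested genes of this type, 9 had positive and 12 negative log2 fold changes, from -1.71 to 1.28. MTR_2g095180 is described as a tyrosine kinase family protein, and its closest Swiss-Prot entry is LysM domain receptor-like kinase 3. It had 38.8, 25.1 and 25.2 CPM in Mtphr2 replicates 1 to 3, against 12.8, 11.8 and 12.1 CPM in R108 replicates 1 to 3. All Mtphr2 libraries lay above all R108 libraries. Its log2 fold change of 1.28 (SE 0.194) had an adjusted p of 0.103 by edgeR, and of 1.01e-05 with DESeq2 to 0.347 over the alternatives. MTR_5g085790, whose closest Swiss-Prot entry is LYK5, a chitin-binding receptor of Arabidopsis, had 59.3, 35.3 and 37.7 CPM in Mtphr2, against 25.2, 16.7 and 21 CPM in R108. Its log2 fold change of 1.07 (SE 0.249) had an adjusted p of 0.185 by edgeR, and of 0.00611 with DESeq2 to 0.374 over the alternatives. MTR_5g086040, in the run of genes that holds LYK3, had 13 ± 1.51 CPM in Mtphr2 and 6.25 ± 2.27 CPM in R108 and a log2 fold change of 1.05 (SE 0.292), for which edgeR gave an adjusted p of 0.215 and the alternatives 0.0351 with DESeq2 to 0.439.

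The genes most like NFP in annotation went both ways. MTR_5g042440, the other LysM gene with the highest mean CPM, has NFP as closest Swiss-Prot entry and had 118, 105 and 77.8 CPM in Mtphr2 replicates 1 to 3, against 66.5, 65.1 and 68.7 CPM in R108 replicates 1 to 3. The genotypes did not overlap, and its log2 fold change of 0.59 (SE 0.157) had an adjusted p of 0.206 by edgeR, and of 0.0399 with DESeq2 to 0.393 over the alternatives. MTR_8g078300, annotated as a putative Nod-factor receptor 5, had 3.87, 1.52 and 1.14 CPM in Mtphr2, against 12.7, 6.36 and 2.22 CPM in R108, with an overlap between Mtphr2 replicate 1 and R108 replicate 3. The fitted change was -1.71 in log2 units (SE 0.724), or -2.41 to -0.98 with single libraries left out, and the adjusted p was 0.311 by edgeR and 0.082 to 0.567 over the alternatives. MTR_5g019050 has the locus number that follows that of NFP, but its closest Swiss-Prot entry is LysM domain receptor-like kinase 4. It was named after its values were seen, and had 2.84 ± 0.153 CPM in Mtphr2 and 1.53 ± 0.236 CPM in R108 (log2 fold change 0.89, adjusted p = 0.206 by edgeR, and 0.0878 to 0.41 over the alternatives).

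MTR_2g024290, which has the same description and closest Swiss-Prot entry as LYK9 and LYK3, had 53.3 ± 1.73 CPM in Mtphr2 and 66.1 ± 18 CPM in R108 (log2 fold change -0.31, adjusted p = 0.462 by edgeR). MTR_5g033490, a receptor kinase gene also named after its values were seen, had 4.82, 1.7 and 2.0 CPM in Mtphr2 replicates 1 to 3, against 15, 6.97 and 2.87 CPM in R108 replicates 1 to 3 (log2 fold change -1.55, or -2.16 to -0.80 with single libraries left out, adjusted p = 0.321 by edgeR). The LysM proteins held to the membrane by a GPI anchor, which bind glycan and have no kinase, had log2 fold changes of 0.32 and -0.25. MTR_4g094730, closest to LYM2, had 71.1 ± 12.1 CPM in Mtphr2 and 56.9 ± 3.15 CPM in R108, and MTR_3g072410, closest to LYM1, had 49.0 ± 3.91 CPM in Mtphr2 and 58.3 ± 5.44 CPM in R108, with adjusted p of 0.32 and 0.313 by edgeR. The 5 tested genes of the peptidoglycan-binding type had log2 fold changes of -0.30 to 0.05. Summed over the 37 LysM genes of the receptor kinase type, the level was 438, 352 and 334 CPM in Mtphr2 replicates 1 to 3 and 385, 309 and 301 CPM in R108 replicates 1 to 3.

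**Figure D4:**
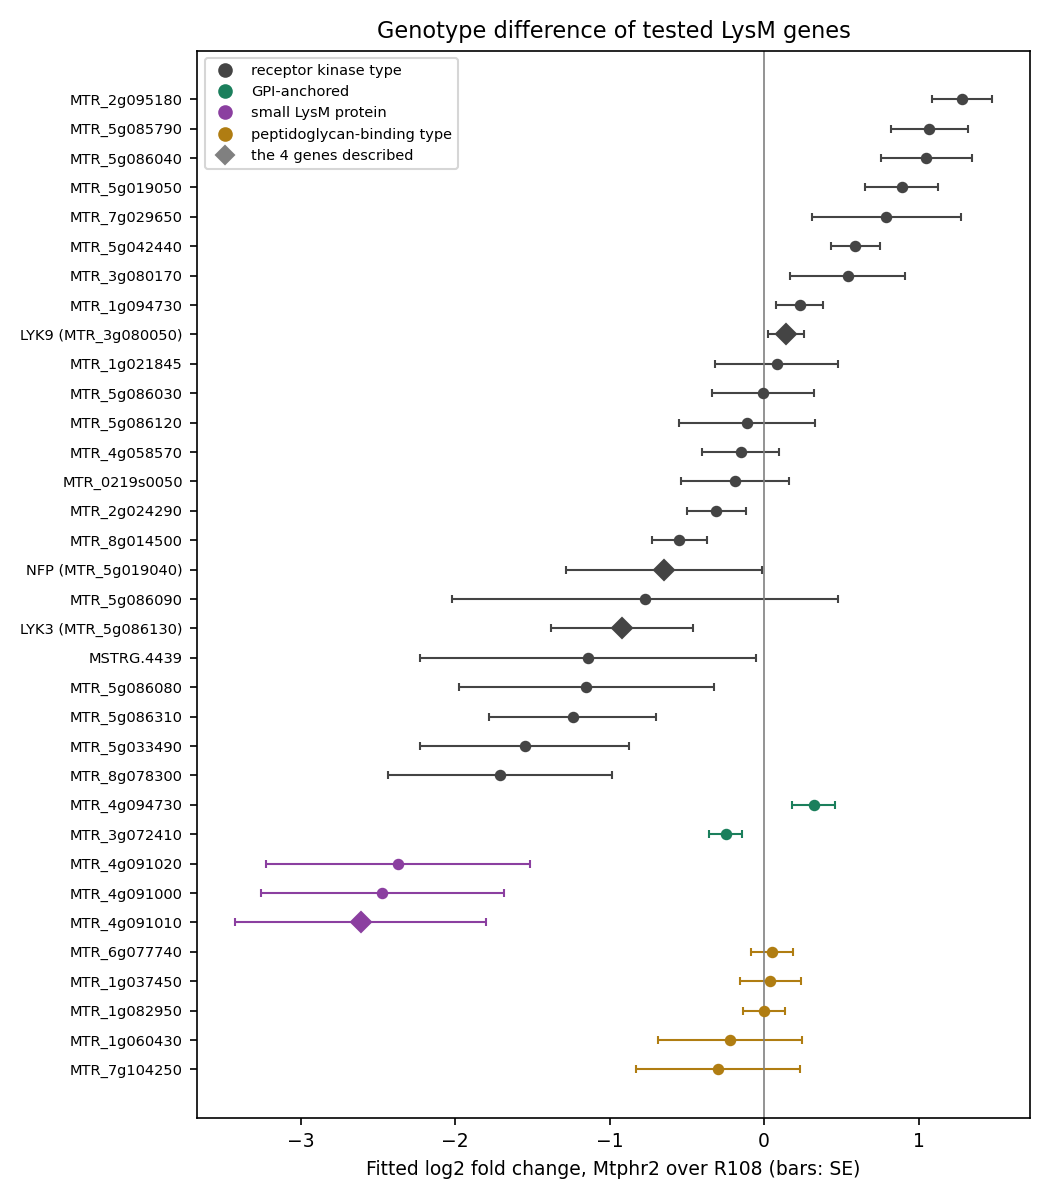
Fitted log2 fold change of Mtphr2 over R108 with its SE for 34 tested LysM genes by protein type, with diamonds for NFP, LYK3, LYK9 and MTR_4g091010. The 3 small LysM proteins lie lowest, between -2.61 and -2.37, and receptor kinases spread from -1.71 to 1.28.

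Genes that act with LysM receptors or after them were counted in the same fit. Of 16 symbiosis loci, 14 were tested and 0 passed edgeR's test, with 4 at an unadjusted p under 0.05 (all lower in Mtphr2), 0 with the replicate block and 0 by DESeq2. The shares over all tested genes were 16.4% for an unadjusted p under 0.05 and 5.73% for DESeq2. The median log2 fold change of the 14 was -0.54, against 0.02 over all tested genes, with 12 negative and 2 positive values where 47.7% of all tested genes were negative. DMI2, the receptor kinase that acts next to the Nod factor receptors, had 149, 119 and 149.5 CPM in Mtphr2 replicates 1 to 3, against 193, 111 and 103 CPM in R108 replicates 1 to 3. VPY, needed for intracellular growth of fungi and rhizobia, had the lowest log2 fold change of the 14, with 31.0 ± 24.7 CPM in Mtphr2 and 120.4 ± 95.3 CPM in R108 (-1.96, or -2.81 to -1.13 with single libraries left out, adjusted p = 0.301 by edgeR). Its genotypes overlapped, as R108 replicate 3 (38.7 CPM) lay below Mtphr2 replicate 1 (58.8 CPM). HMGR1, an enzyme of mevalonate synthesis known to interact with DMI2, had the highest log2 fold change of the 14, with 15.9 ± 7.74 CPM in Mtphr2 and 11.2 ± 4.2 CPM in R108 (0.51, adjusted p = 0.585 by edgeR).

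Chitin perception also feeds the oxidative burst and MAP kinases. Of 9 tested respiratory burst oxidase genes, 7 had positive and 2 negative log2 fold changes (median 0.15), and of 47 tested MAP kinase cascade genes, 23 were positive and 24 negative (median -0.00). Of all tested genes, 47.7% were negative. In both groups 0 passed edgeR's test, against 0.0794% of all tested genes, and 0 with the replicate block, against 0.335%. An unadjusted p under 0.05 was found for 3 of the 9 oxidase genes (2 higher and 1 lower in Mtphr2). It was found for 7 of the 47 MAP kinase genes (3 higher, 4 lower), against 16.4% of all tested genes. DESeq2 called 1 oxidase gene (lower in Mtphr2) and 3 MAP kinase genes (2 higher, 1 lower), against 5.73%. For the MAP kinase genes both shares were near those of all tested genes.

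For each of the 4 genes the closest expression pattern was sought among 21548 tested annotated genes by Pearson's r of log2 CPM over the 6 libraries, as a description. The genes most like MTR_4g091010 were MTR_4g109150, a WEAK movement UNDER BLUE LIGHT-like protein gene (r = 0.9996), MTR_7g093330, a C1 domain protein gene (r = 0.9995), and MTR_3g011630, a tyrosine kinase family gene (r = 0.9988). MTR_4g109150 had 8.94, 1.66 and 2.95 CPM in Mtphr2 replicates 1 to 3 and 44.8, 23.7 and 9.05 CPM in R108 replicates 1 to 3. RAM2, a glycerol-3-phosphate acyltransferase gene and the closest arbuscule marker, ranked 23 (r = 0.9963), and its neighbour MTR_4g091020 ranked 101 (r = 0.9894).

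The receptors had other nearest genes. For LYK9 they were MTR_3g053200, a CC-NBS-LRR resistance gene (r = 0.9986), MTR_3g073590 (r = 0.9917) and MTR_6g004970, a CCCH zinc finger gene (r = 0.9846), and no arbuscule marker had an r above 0.0084. For LYK3 they were MTR_2g008820, a potassium transporter-like gene (r = 0.9891), MTR_8g033150, a subtilisin-like protease gene (r = 0.9834), and MTR_8g056030, a cullin gene (r = 0.9827). For NFP they were MTR_3g014680, a transglutaminase family gene (r = 0.9909), MTR_3g082660 (r = 0.9887) and MTR_5g016190 (r = 0.9887). NFP was the LysM gene closest to LYK3, at r = 0.7217 and rank 1323. With 6 libraries, and counts as low as 8 for NFP, such an r is a weak measure of likeness.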

How the data were processed

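Per the labels' protocols, root RNA of Mtphr2 and R108 was extracted with TRIzol, sequenced on an Illumina Novaseq 6000, aligned by HISAT2 to genome v4.0 of the species and assembled by StringTie. The submitters' processing notes also name DESeq2. No source used here gives tool versions or the counting program. The authors deposited estimated counts per locus, with decimals and not normalized, beside gene lengths and annotation. The same genome served both genotypes, and how well it matches R108 at each LysM gene was not examined. No coordinates or sequences were used.

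Estimated counts were rounded. Genes were kept by filterByExpr (minimum count 10, minimum total 15), which left 22663, scaled by TMM (factors 0.955 to 1.02) and compared by edgeR's quasi-likelihood test, Benjamini-Hochberg adjusted, at 0.05, with R 4.3.3, edgeR 4.0.16 and DESeq2 1.42.0. Log2 CPM used a prior count of 2. The scripts were tested on simulated data.

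LysM genes were found by the words LysM, chitin elicitor or Nod factor receptor, and 4 matches of other families were left out. The words could stand anywhere in the annotation, the closest Swiss-Prot entry included. Neither a LysM domain nor a full-length gene was required. The members and lists were chosen with earlier results of these data known. Other LysM genes were named if called, by the 5 highest mean CPM and by the 3 highest and 3 lowest log2 fold changes; of the symbiosis loci, DMI2 and the largest change each way were named, and for each of the 4 genes the 3 with the highest Pearson's r. Other genes named after their values were seen are marked as such.

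The titles number libraries 1 to 3 in each genotype. Deviations from the genotype mean correlated between same-numbered libraries at 0.377, 0.151 and 0.168, each above 0.1, so the fit with the replicate block (the number as a term) was also made. For unlike numbers the values were -0.31 to 0.187. Between libraries of a genotype, chi-square per degree of freedom was 25.1 to 52.2, so none was a repeat of another.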

Additional observations from a re-analysis of the deposited data

How the results depend on the processing

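The log2 fold changes of NFP, LYK3, LYK9 and MTR_4g091010 kept their sign under the DESeq2 size factors, DESeq2's own fit, no filter on low counts and the replicate block, where they were -0.49, -0.81, 0.14 and -2.66. With 1 library left out they ran from -1.02 to 0.17, from -1.28 to -0.59, from 0.08 to 0.24 and from -3.60 to -1.89, in the same order. NFP turned to 0.17 without R108 replicate 1, the library with its highest count. The number of genes called was 18 by edgeR, 76 with the replicate block, 34 with no filter, 1298 by DESeq2 and 7 to 44 with 1 library left out (44 without Mtphr2 replicate 1, 7 without Mtphr2 replicate 2 or 3, and 8 without R108 replicate 2 or 3); the cause was not tested. Of the other LysM genes, 0 were called except by DESeq2 (5 of 30 tested). Of the symbiosis loci, oxidase and MAP kinase genes together, 0 were called except by DESeq2 (4 of 70 tested). DESeq2 called 5.73% of all tested genes, and the 4 of 70 is near that share. The replicate block changed no call in either group. The marker difference of -2.54 ran from -3.27 to -1.94 with 1 library left out. Counts of 8 to 57 limit NFP and LYK3.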
